A study of Homo sapiens with 18 samples.

Results

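The expression of 10 genes of homologous recombination was followed across 6 ovarian cancer cell lines. The genes were taken by symbol from the RNA-seq table. They are *PALB2*, *BRIP1*, *RAD51C*, *RAD51D*, *XRCC2*, *XRCC3*, *BARD1*, *FANCI*, *RAD54L* and *BLM*, and 10 of the 10 were among its 12853 genes. Total RNA depleted of ribosomal RNA was sequenced from 18 libraries, 3 of each line. The lines form 3 pairs of a platinum-sensitive and a platinum-resistant line, and the question was how expression differed within each pair. A2780, labelled endometrial/ovarian, was paired with CP70, a derivative of it made resistant in culture. PEO1 and PEO4 came from the same patient with high-grade serous ovarian cancer. Both were taken after platinum-based chemotherapy, PEO1 before and PEO4 after clinical resistance. The PEA lines are ascites cells of another patient with this cancer, PEA1 taken while untreated with platinum and PEA2 once the relapsed disease no longer responded. The 6 lines shared a culture medium, RPMI-1640 with added serum and glutamine, and the labels name no drug given to these cultures.

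Each state of a pair is represented by a single line, so resistance and any other difference between the lines of a pair cannot be told apart. The labels do not say whether replicates were separate cultures, so p-values measure the spread between these libraries, which may be technical. In RNA from whole cultures, fewer expressing cells and less RNA per cell cannot be told apart either.

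Homologous recombination repairs a double-strand break, or a replication fork stalled at a platinum crosslink, by copying an intact sister chromatid. BRCA1, bound to its partner BARD1, acts early at the resected end, PALB2 links it to BRCA2, and BRCA2 prepares the single-stranded DNA for strand exchange. Further proteins assist the exchange, unwind DNA and resolve the joined molecules, and the pathway is well known in ovarian cancer because its loss makes cells sensitive to platinum.

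Values are log2 CPM, read counts scaled to the size of each library on a log2 scale. The libraries held 1344098 to 7067336 reads on listed genes, with the fewest in PEA1. At these depths the members held between 4 reads (*RAD51D* in a PEO1 library) and 1065 reads (*FANCI* in a CP70 library). The lines were checked against 9 epithelial and serous markers. PEO1, PEO4 and PEA2 expressed them all, with summed levels of 4150 to 8510 CPM per library. A2780 did not, at 3.50 to 5.14 CPM, with 8 of 9 markers at or below 3 reads in every library and *PAX8* at 0. CP70 reached 91.6 to 96.9 CPM, with *WT1* at 0 and *PAX8* at 0 or 1 read. Against A2780, *KRT18* (log2FC 5.84), *KRT8* (5.03) and *EPCAM* (3.77) were higher at an FDR below 0.05, and 0 of the 9 were lower. PEA1 reached 434 to 592 CPM, held 379 to 595 reads of *PAX8* and at most 4 reads of *CDH1*. In PEA2, 7 of the 9 markers were higher than in PEA1 at an FDR below 0.05 and 0 were lower. All 7 had a log2FC above 2, up to 9.28 for *CDH1*. Of 11 immune and stromal markers 4 were matched. *PTPRC*, the CD45 gene of leukocytes, held 46 to 70 reads in PEA2 and at most 2 elsewhere, and *COL1A1*, a collagen gene, held 513 to 649 reads in PEA1 and 7 to 11 in PEA2. The other matrix genes, *DCN* and *LUM*, were at 0 reads in every PEA1 and PEA2 library. They were higher in CP70, with 80 to 150 reads of *DCN* against 4 to 12 in A2780 (log2FC 3.37) and 41 to 72 reads of *LUM* against 0 to 6 (log2FC 3.86). *COL1A1* was not higher there, at a mean of 2.22 log2 CPM in CP70 against 2.71 in A2780. In PEO4 *KRT7* was lower than in PEO1 (log2FC -2.44, FDR 0.000291), and *WT1* (1.44, FDR 0.00243) and *EPCAM* (0.46, FDR 0.0402) were higher. Markers of cell type thus differed within all 3 pairs together with resistance, and their part in the results below was not tested.

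The loci are given on GRCh37 (hg19). *PALB2* lies at chr16:23614481-23652642 and *BARD1* at chr2:215590370-215674407. The genes of the RAD51C complexes lie at chr17:56769934-56812972 (*RAD51C*), chr17:33419240-33448541 (*RAD51D*), chr7:152341861-152373278 (*XRCC2*) and chr14:104163946-104181841 (*XRCC3*). *BRIP1* lies at chr17:59756500-59940920, *FANCI* at chr15:89787176-89860492, *RAD54L* at chr1:46712133-46744152 and *BLM* at chr15:91260577-91359396. The start sites of *RAD51C* and *BRIP1* are 3.17 Mb apart and those of *FANCI* and *BLM* 1.47 Mb apart. *RAD51D* overlaps another annotated protein-coding locus on its own strand, so its reads may be shared, and *XRCC3*, *FANCI* and *RAD54L* overlap the protein-coding genes *KLC1*, *POLG* and *LRRC41* on the opposite strand. The library kit marks strand, but whether the counting used it is not given in the sources used here.

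The promoters of 4 genes on which the results turn are shown, from 250 bases before the RefSeq start to 30 bases after it. This start can differ from that of the spans above, and the *RAD54L* promoter lies wholly inside the span given for the gene. They are *XRCC3*, lower in the resistant line of every pair, *RAD51C* and *RAD54L*, which fell the most in PEA2, and *PALB2*, which rose there. The sequences are from RefSeq (GRCh38.p14), each found at exactly 1 place in GRCh37, and capitals mark CCAAT or its reverse complement and the ETS motif CCGGAAG or its reverse complement.
XRCC3, chr14:104181759-104182038, minus strand: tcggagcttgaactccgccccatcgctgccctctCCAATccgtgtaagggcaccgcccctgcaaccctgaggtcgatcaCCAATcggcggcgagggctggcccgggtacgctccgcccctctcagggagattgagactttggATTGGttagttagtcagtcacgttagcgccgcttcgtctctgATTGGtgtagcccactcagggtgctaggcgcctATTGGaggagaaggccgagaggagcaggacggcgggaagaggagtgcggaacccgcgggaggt
RAD51C, chr17:56769684-56769963, plus strand: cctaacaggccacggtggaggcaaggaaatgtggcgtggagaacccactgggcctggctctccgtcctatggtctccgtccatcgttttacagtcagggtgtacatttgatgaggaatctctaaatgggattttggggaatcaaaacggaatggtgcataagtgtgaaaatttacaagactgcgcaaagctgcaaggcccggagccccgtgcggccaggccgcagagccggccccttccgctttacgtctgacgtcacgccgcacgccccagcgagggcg
RAD54L, chr1:46713110-46713389, plus strand: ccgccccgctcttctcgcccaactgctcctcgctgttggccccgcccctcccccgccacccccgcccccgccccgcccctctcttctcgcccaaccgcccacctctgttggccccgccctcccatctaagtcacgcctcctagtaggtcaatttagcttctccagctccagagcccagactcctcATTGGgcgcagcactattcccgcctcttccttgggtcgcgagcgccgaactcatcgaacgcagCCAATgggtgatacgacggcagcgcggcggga
PALB2, chr16:23652602-23652881, minus strand: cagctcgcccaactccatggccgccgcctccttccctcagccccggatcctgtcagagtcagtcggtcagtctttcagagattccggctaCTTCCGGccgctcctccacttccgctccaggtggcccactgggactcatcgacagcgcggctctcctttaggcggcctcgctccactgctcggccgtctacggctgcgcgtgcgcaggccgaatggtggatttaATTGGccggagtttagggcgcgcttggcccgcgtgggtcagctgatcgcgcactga

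Promoters were matched for 9 of the 10 genes, without *FANCI*, and 5 motifs of cell cycle and housekeeping promoters were searched on both strands over 300 bases. CCAAT stood in 5 of the 9 (*PALB2*, *BRIP1*, *XRCC3*, *RAD54L* and *BLM*), against 36.5% of 8983 promoters of genes in the table. *XRCC3* held 5 copies, at -216, -171, -108, -66 and -33 from the start. The ETS motif stood in *PALB2*, *RAD51D* and *BLM* (19.6% of all promoters). An E2F motif, searched as TTTCCCGC, TTTGGCGC, TTTCGCGC or TTTGCCGC, stood in *XRCC2* alone of the 9, at 22 bases after the start (5.41% of all). The CHR motif TTTGAA stood in *BRIP1* (9.57% of all), and the NRF1 motif, searched as its palindromic core, in 0 of the 9 (2.37% of all). No 2 matches overlapped within a promoter. The *RAD51C* and *BARD1* promoters held none of these letters, and a match or its absence is a description of the sequence and not of binding.

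All members were expressed in all lines, and their levels differed among the lines. In limma's test over the 6 lines, 10 of 10 members passed a false discovery rate (FDR) of 0.05, beside 97.5% of all genes, with FDR values from 1.94e-09 (*FANCI*) to 0.000186 (*RAD51D*). Divided by the length of the reference transcript in kilobases, *FANCI* was the most abundant, at 4.54 to 5.65 log2 CPM per kilobase. Of the others, *XRCC3* had a median of 3.74, *RAD54L* of 3.45, *PALB2* of 3.28, *BARD1* of 3.17, *BLM* of 2.91, *BRIP1* of 2.72, *RAD51C* of 2.69 and *XRCC2* of 2.66 on the same scale, and their ranges over the libraries overlapped. *RAD51D* was lowest at -2.63 to 0.54, a value that rests on a reference transcript of 9966 bases, the longest of the 10, and its reads numbered 4 to 58. The distance between the highest and the lowest line was largest for *RAD51C*, at 2.10 on the log2 CPM scale, and smallest for *BRIP1*, at 0.80. The plot of levels by line shows every library.

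**Figure D1:**
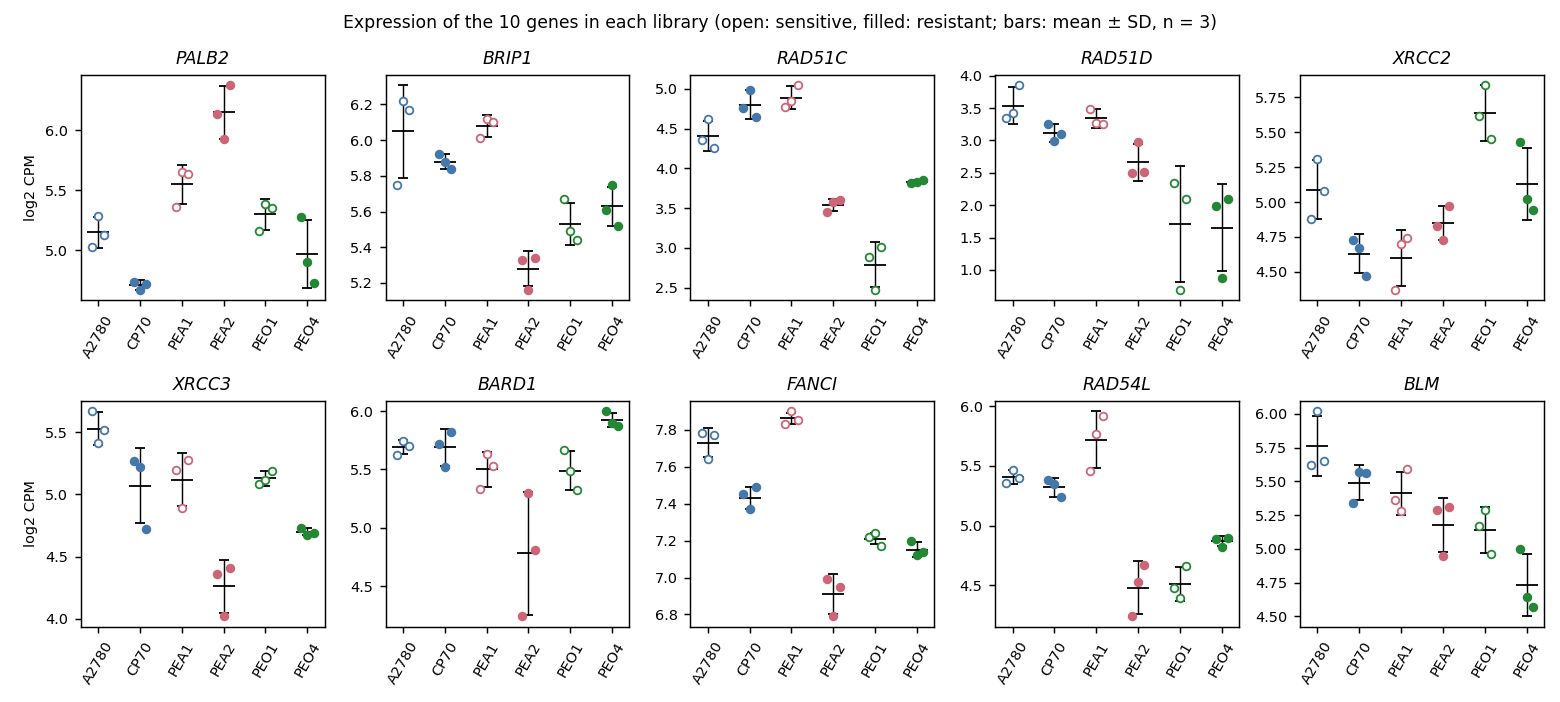
Expression of each of the 10 genes in log2 CPM (vertical axes, scaled per gene) in the 3 libraries of each line, open circles for sensitive and filled circles for resistant lines, with the mean and SD in black. *RAD51C* was lowest in PEO1, at 2.47 to 3.01, *XRCC3* was lower in the resistant line of every pair, and *PALB2* was highest in PEA2, at 5.93 to 6.38.

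In PEA2 most members were lower than in PEA1. Calls were made with limma at an FDR below 0.05 over all 12853 genes, and a log2 fold change (log2FC) is the resistant minus the sensitive line on the log2 CPM scale. *RAD51C*, *RAD54L*, *FANCI*, *XRCC3*, *BRIP1* and *BARD1* fell and *PALB2* rose, so 7 of 10 were called where 61.9% of all genes were. The share of all genes called lower was 29.4% and that called higher 32.5%. The median log2FC of the 10 was -0.76, beside 0.01 over all genes. *RAD51C* and *RAD54L* were the 2 members that also passed a log2FC of 1 in size, which 33.6% of all genes did, and none passed 2, which 14.1% did. The libraries of PEA1 and PEA2 did not overlap for 8 members, which held for 62.6% of all genes. All 7 calls were kept whichever library was left out, and *BARD1* moved the most, to -0.44 (FDR 0.0183) without PEA2 replicate 1. The scaling mattered here. With plain library sizes the median of all genes shifted to -0.24 in this pair, their split from 4182 higher and 3776 lower to 3166 and 5064, and that of the members to 0 higher and 8 lower, since *PALB2* lost its call (0.36, FDR 0.0525) and *RAD51D* and *BLM* gained one.

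CP70 differed less from A2780. *PALB2*, *XRCC2*, *XRCC3* and *FANCI* fell, and none of the members rose. These 4 of 10 stand beside 39.9% of all genes called in either direction and 17.7% called lower. No member passed a log2FC of 1 or 2 in size, which 19.2% and 9.06% of all genes did. The median log2FC of the members was -0.29, beside -0.02 over all genes, and 7 members had libraries that did not overlap, which held for 54.6% of all genes. The count fell to 2 without A2780 replicate 2 or CP70 replicate 2, and to 1 without A2780 replicate 3 or CP70 replicate 3, when *FANCI* alone was called.

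PEO4 and PEO1 differed in both directions. *RAD51C* rose to 2.06 times its PEO1 level, while *XRCC2*, *XRCC3* and *BLM* fell. These 4 of 10 stand beside 41.5% of all genes called, 19.6% higher and 21.9% lower. *RAD51C* was the member past a log2FC of 1, which 18.8% of all genes were, and none passed 2, which 6.22% did. The median log2FC of the members was -0.06, beside -0.02 over all genes, and 5 members had libraries that did not overlap (57.5% of all genes). The split of the calls was 3 higher and 2 lower after quantile normalization and 2 and 2 with plain library sizes, since *BARD1* and *RAD54L* lay just short of the threshold and *BLM* just past it. Without PEO1 replicate 1 the count was 2, and it was 1 without PEO1 replicate 2, PEO4 replicate 2 or PEO4 replicate 3, when *RAD51C* remained.

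**Figure D2:**
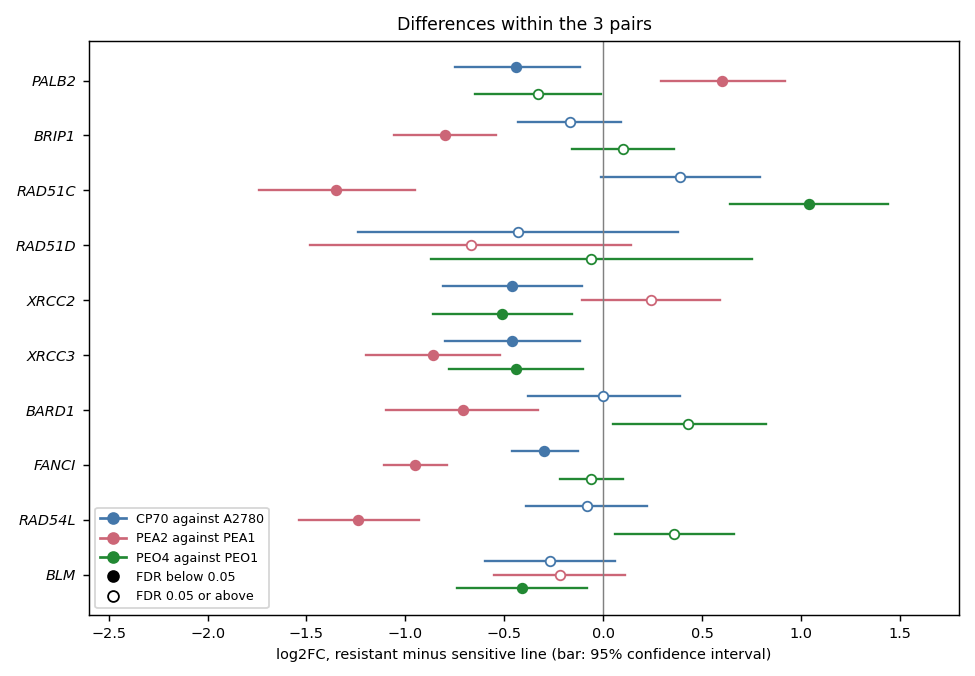
The log2FC of each gene (vertical axis) in each pair with its 95% confidence interval (horizontal axis, resistant minus sensitive line, from limma), filled where the FDR was below 0.05. *XRCC3* was filled and below 0 in all 3 pairs, *RAD51C* ran from -1.35 in the PEA pair to 1.04 in the PEO pair, and *RAD51D* had the widest intervals.

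*BARD1*, the obligate partner of BRCA1 in its ubiquitin ligase, was called in the PEA pair alone. Its log2 values were 5.62, 5.74 and 5.70 in A2780 and 5.72, 5.52 and 5.82 in CP70, with no difference beyond the spread (log2FC 0.004, 95% interval -0.38 to 0.39). In the PEA pair they were 5.33, 5.63 and 5.53 in PEA1 and 4.24, 5.30 and 4.81 in PEA2. Every PEA2 library was below every PEA1 library, though the PEA2 libraries were far apart, and *BARD1* fell by 0.71 (SE 0.18, FDR 0.00224). In the PEO pair *BARD1* was 5.67, 5.49 and 5.32 in PEO1 and 6.0, 5.90 and 5.87 in PEO4. All PEO4 libraries were higher, and the log2FC of 0.43 (interval 0.05 to 0.82, FDR 0.0653) missed the threshold but passed it without PEA2 replicate 1 (FDR 0.0152) or PEA2 replicate 2 (FDR 0.0204), which share the estimate of the spread. It also passed with the pair fitted alone (FDR 0.00633), after quantile normalization (FDR 0.0360) and with voom weights (FDR 0.0120).

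*PALB2*, the bridge between BRCA1 and BRCA2, was called in opposite directions. It stood at 5.03, 5.29 and 5.13 in A2780 and at 4.74, 4.67 and 4.72 in CP70. The CP70 values were lower and closely spaced, with a log2FC of -0.44 (SE 0.15, FDR 0.0275). This call was lost when any of the 6 libraries of the pair other than A2780 replicate 1 was left out (FDR 0.0562 to 0.0971 without A2780 replicates 3 and 2, and 0.0542, 0.0771 and 0.0600 without CP70 replicates 1, 2 and 3). In PEA1 *PALB2* was 5.36, 5.65 and 5.64, and in PEA2 it was 6.14, 5.93 and 6.38. Here the resistant line was higher in every library, at 1.52 times the sensitive level (log2FC 0.60, SE 0.15, FDR 0.00188). In PEO1 it was 5.16, 5.39 and 5.35, against 5.28, 4.90 and 4.73 in PEO4. The PEO libraries overlapped, and the log2FC of -0.33 (interval -0.65 to -0.01, FDR 0.0902) passed the threshold without PEO4 replicate 1 (-0.49, FDR 0.0195).

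*RAD51C*, a subunit of both the larger complex with RAD51D and XRCC2 and the smaller complex with XRCC3, showed the largest changes of the 10. It was 4.77, 4.85 and 5.05 in PEA1 and 3.45, 3.58 and 3.60 in PEA2, the latter from 20 to 41 reads. The groups were far apart, with PEA2 at 0.393 times the PEA1 level (log2FC -1.35, SE 0.19, FDR 4.2e-06). In PEO1 *RAD51C* was 2.88, 2.47 and 3.01, from 15 to 53 reads, and in PEO4 it was 3.81, 3.83 and 3.85. Here the order was turned, with every PEO4 library higher (log2FC 1.04, SE 0.19, FDR 0.000166). In the third pair it was 4.36, 4.62 and 4.25 in A2780 and 4.76, 4.99 and 4.65 in CP70. The CP70 libraries were all higher, by 0.39 on average, and the difference missed the threshold (interval -0.01 to 0.79, FDR 0.111), which it passed without the trend of the variance (FDR 0.0463) or with voom weights (FDR 0.0390).

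*XRCC3*, which pairs with RAD51C in the smaller complex, was the member called lower in all 3 pairs. In A2780 it was 5.67, 5.41 and 5.52, and in CP70 it was 5.27, 5.22 and 4.72. In PEA1 it was 5.2, 4.89 and 5.28, and in PEA2 it was 4.36, 4.02 and 4.41. In PEO1 it was 5.08, 5.12 and 5.19, and in PEO4 it was 4.73, 4.67 and 4.69. No resistant library reached its sensitive counterparts in any pair. The log2FC was -0.46 (SE 0.16, FDR 0.0289) in CP70, -0.86 (SE 0.16, FDR 0.000132) in PEA2 and -0.44 (SE 0.16, FDR 0.0370) in PEO4. Of all genes, 155 (1.21%) were called lower in all 3 pairs and 205 higher. The PEA call held whichever library was left out. The CP70 call was lost without A2780 replicate 1 (FDR 0.108), A2780 replicate 3 (FDR 0.0600) or CP70 replicate 3 (-0.29, FDR 0.196), and the PEO call was lost without any of the 6 PEO libraries in turn (PEO1 replicates 1, 2 and 3 FDR 0.0602, 0.0763 and 0.100, and PEO4 replicates 1, 2 and 3 FDR 0.0670, 0.0853 and 0.0805), with a log2FC between -0.46 and -0.41.

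*XRCC2*, in the larger complex, was called lower in the A2780 and PEO pairs. It was 4.88, 5.31 and 5.08 in A2780 and 4.73, 4.67 and 4.47 in CP70 (log2FC -0.46, SE 0.17, FDR 0.0329). The call was lost without A2780 replicate 2 (FDR 0.137), A2780 replicate 3 (FDR 0.0668), CP70 replicate 2 (FDR 0.0603) or CP70 replicate 3 (FDR 0.127), and with plain library sizes (FDR 0.0607). It was 5.62, 5.84 and 5.45 in PEO1, its highest line, and 5.43, 5.02 and 4.94 in PEO4 (log2FC -0.51, SE 0.17, FDR 0.0192). That call was lost without PEO1 replicate 2 (FDR 0.100), PEO4 replicate 2 (FDR 0.0712) or PEO4 replicate 3 (FDR 0.0939). In the PEA pair, at 4.37 to 4.74 in PEA1 and 4.73 to 4.97 in PEA2, the libraries overlapped (log2FC 0.24, interval -0.11 to 0.59), and the sign turned with plain library sizes (-0.003).

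*RAD51D*, the subunit that joins XRCC2 to RAD51C, was called in no pair, and its depth limits what could be seen. It held 32 to 58 reads in A2780 and CP70, 10 to 27 in PEA1 and PEA2 and 4 to 28 in PEO1 and PEO4. Its log2 values spread from 0.69 to 2.34 within PEO1 and from 0.88 to 2.09 within PEO4. The log2FC there was -0.06 (interval -0.87 to 0.75), and at this depth differences inside that interval could not be told from 0. Its log2FC was -0.43 (interval -1.24 to 0.38) in CP70 and -0.67 (interval -1.48 to 0.14) in PEA2, and in both of these pairs the libraries did not overlap. By line *RAD51D* ran from 3.54 in A2780 and 3.34 in PEA1 to 1.71 in PEO1 and 1.65 in PEO4, and no PEO library reached any A2780, CP70 or PEA library.

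*RAD54L*, the motor protein that drives strand exchange, followed *RAD51C* in the PEA pair. It was 5.46, 5.77 and 5.92 in PEA1 and 4.24, 4.53 and 4.67 in PEA2. PEA2 was below PEA1 in every library, at 0.425 times the level (log2FC -1.24, SE 0.14, FDR 3.84e-07). In the PEO pair it was 4.48, 4.39 and 4.66 in PEO1 and 4.89, 4.82 and 4.90 in PEO4. Those libraries did not overlap either, and the log2FC of 0.36 (interval 0.06 to 0.66, FDR 0.0545) passed the threshold without PEO1 replicate 3, PEA1 replicate 1, PEA1 replicate 3, PEA2 replicate 1 or PEA2 replicate 3 (FDR 0.0430, 0.0377, 0.0478, 0.0384 and 0.0481), and with quantile normalization, plain library sizes, no trend or 2 reads added (FDR 0.0215, 0.0394, 0.0421 and 0.0487). A2780 and CP70, at 5.24 to 5.47, overlapped (log2FC -0.08, interval -0.39 to 0.22).

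*FANCI*, which forms a clamp with FANCD2 on DNA at crosslinks, was the best measured member, with 237 to 1065 reads. It was 7.83, 7.90 and 7.85 in PEA1, its highest line, and 6.99, 6.79 and 6.95 in PEA2, its lowest. PEA2 was at 0.517 times the PEA1 level (log2FC -0.95, SE 0.08, FDR 2.57e-09). It was 7.78, 7.64 and 7.77 in A2780 and 7.45, 7.37 and 7.49 in CP70. CP70 was lower in every library (log2FC -0.30, SE 0.08, FDR 0.00457), and this call held whichever library was left out. PEO1, at 7.17 to 7.24, and PEO4, at 7.12 to 7.20, overlapped, and the interval of their difference ran from -0.22 to 0.10.

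Of the helicases, *BRIP1*, which binds BRCA1 and unwinds structured DNA, was called in the PEA pair. It was 6.01, 6.12 and 6.10 in PEA1 and 5.33, 5.16 and 5.34 in PEA2, with every PEA2 library lower (log2FC -0.80, SE 0.12, FDR 1.34e-05). In the other pairs its libraries overlapped. Its log2FC was 0.10 (interval -0.16 to 0.36) in PEO4 and -0.17 (interval -0.43 to 0.09) in CP70, and the latter passed the threshold without A2780 replicate 1 (-0.32, FDR 0.0429). *BLM*, the helicase that dissolves double Holliday junctions with TOP3A, was 5.17, 5.29 and 4.96 in PEO1 and 5.0, 4.64 and 4.57 in PEO4. The libraries overlapped, since PEO4 replicate 1 lay above PEO1 replicate 3, and the log2FC was -0.41 (SE 0.16, FDR 0.0452). This call was lost without PEO1 replicate 1, PEO1 replicate 2, PEO4 replicate 2, PEO4 replicate 3, CP70 replicate 2 or CP70 replicate 3 (FDR 0.102, 0.162, 0.134, 0.167, 0.0545 and 0.0546), and with quantile normalization, plain library sizes, no trend of the variance or voom weights (FDR 0.0598, 0.0778, 0.0534 and 0.0790). *BLM* was not called in CP70 (-0.27, interval -0.60 to 0.06) or in PEA2 (-0.22, interval -0.55 to 0.11).

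The changes of the members were then compared between pairs by contrasts of the contrasts in the same limma fit. The changes in the PEA pair and in the A2780 pair differed for 7 of 10 members, beside 57.5% of all genes. They differed for *RAD51C* by -1.74 (SE 0.27, FDR 1.58e-05), for *RAD54L* by -1.15 and for *PALB2* by 1.04. The difference for *BARD1* (-0.72, FDR 0.0236) was lost without CP70 replicate 3 (FDR 0.0589), PEA1 replicate 2 (FDR 0.0529) or PEA2 replicate 1 (-0.45, FDR 0.0713), and that for *XRCC3* (-0.39, FDR 0.149) passed without CP70 replicate 3 (-0.57, FDR 0.0365). Between the PEO and PEA pairs the changes also differed for 7 of 10, beside 58.7% of all genes, with the largest difference at *RAD51C* (2.39, SE 0.27, FDR 2.87e-07). For *XRCC3* the change in the PEO pair exceeded that in the PEA pair by 0.42 (interval -0.06 to 0.90, FDR 0.123).

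The changes in the PEO pair and in the A2780 pair differed for 0 of 10 members in limma, beside 47.5% of all genes. At an unadjusted limma p under 0.05, *RAD51C*, *FANCI* and *RAD54L* passed (0.0253, 0.0437 and 0.0438). So did 6865 of all 12853 genes. *RAD51C* came closest to the FDR threshold, with a difference of 0.65 (interval 0.09 to 1.21, FDR 0.0527). After quantile normalization it was 1.13 (FDR 0.00514) and that of *RAD54L* 0.52 (FDR 0.0390), and the *RAD51C* difference also passed without the trend of the variance (FDR 0.0180) or with 2 reads added (FDR 0.0446). It passed without A2780 replicate 3 (FDR 0.0431), CP70 replicate 2 (FDR 0.0451) or PEO1 replicate 3 (FDR 0.0325), *BRIP1* passed without A2780 replicate 1 (0.42, FDR 0.0384) and *FANCI* without A2780 replicate 2 (FDR 0.0469). These 3 sets of contrasts share pairs, so they are not independent of each other.

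A model with the pair and the sensitivity as terms gave the mean difference of the resistant lines over the 3 pairs. It has no term for changes that differ between pairs. Its p-values therefore mix disagreement between the pairs with the spread between libraries. *XRCC3* (-0.58, SE 0.11, FDR 0.00147), *FANCI* (-0.44, SE 0.11, FDR 0.0075) and *BLM* (-0.30, SE 0.10, FDR 0.0371) were lower. These 3 of 10 stand beside 24.1% of all genes called and 11.6% called lower. *XRCC3*, *FANCI*, *BLM* and *RAD51D* were below 0 in 3 of 3 pairs, and the share of all genes with such signs was not counted. In PEO4 *FANCI* and *RAD51D* were each at -0.06 and not called (FDR 0.59 and 0.925). The *BLM* call was lost without A2780 replicate 2, CP70 replicate 1, PEO1 replicate 1, PEO1 replicate 2, PEO4 replicate 2, PEO4 replicate 3, PEA1 replicate 3 or PEA2 replicate 2 (FDR 0.0673, 0.0653, 0.0598, 0.0665, 0.0624, 0.0657, 0.0673 and 0.0687), and *BRIP1* passed without A2780 replicate 1 (-0.34, FDR 0.0483). With the 3 pair differences as the replicates the spread is that between pairs, and 0 members and 0 of all genes were called by limma. In that fit 395 genes had an unadjusted limma p under the 0.05 level. None of the members was among them, and the lowest p of a member was 0.111 (*XRCC3*).

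The rest of the pathway was described with a list of 41 further homologous recombination genes and a list of 17 further Fanconi anemia genes. In CP70, 7 of the 41 rose and 9 fell, in PEA2 13 rose and 17 fell, and in PEO4 6 rose and 14 fell. The 16, 30 and 20 called of 41 stand beside 39.9%, 61.9% and 41.5% of all genes. Of all genes 22.2%, 32.5% and 19.6% were called higher, and 17.7%, 29.4% and 21.9% lower. Their median log2FC was -0.06, -0.15 and -0.17 in the same order, closer to 0 than that of the 10 members in CP70 and PEA2. *BRCA1*, *EXO1*, *EME1* and *MCM8* were called lower in all 3 pairs and no gene of the list was called higher in all 3. Of all genes 1.21% were called lower and 1.6% higher in all 3 pairs. *BRCA1* fell by 0.42 (FDR 0.00564), 0.50 (FDR 0.000805) and 0.44 (FDR 0.00361) in CP70, PEA2 and PEO4. *BRCA2* fell by 0.36 in PEA2 (FDR 0.0307) and was not called in CP70 (0.19, FDR 0.313) or PEO4 (-0.15, FDR 0.424).

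The largest changes among these partners were those of accessory proteins, nucleases and a helicase. *SFR1*, which forms a complex with SWI5, was the highest called gene of the list in CP70 (1.34) and PEA2 (2.35), and *SWI5* was the highest in PEO4 (1.16). The lowest were *EME1*, a subunit of the MUS81 nuclease, in CP70 (-1.31), the helicase gene *FBXO18* in PEA2 (-1.64) and *EXO1*, an exonuclease of end resection, in PEO4 (-1.67). Some of these extremes rest on few reads. *SFR1* held 10 to 17 in A2780 and 13 to 18 in PEA1, *SWI5* 16 to 47 in PEO1 and *EME1* 11 to 30 in CP70. *FBXO18* held 64 to 107 in PEA2 and *EXO1* 42 to 57 in PEO4. Of the 17 Fanconi anemia genes 1 rose and 3 fell in CP70, 3 rose and 6 fell in PEA2, and 3 rose and 4 fell in PEO4. So 4, 9 and 7 of 17 were called beside the same 39.9%, 61.9% and 41.5% of all genes. The shares of all genes called higher and lower are those given for the 41 genes. *FANCD2*, the partner of FANCI, rose in PEA2 (0.45, FDR 0.0130), where *FANCI* fell, and in PEO4 (0.50, FDR 0.0117), where the interval of *FANCI* included 0. The *FANCD2* values overlapped in the PEA pair, at 6.31, 6.25 and 6.46 in PEA1 and 6.36, 6.98 and 7.05 in PEA2. In CP70 *FANCD2* had a log2FC of -0.17 (FDR 0.391). The nuclease gene *FAN1* was called lower in all 3 pairs (-0.51, -1.08 and -1.03), as were 1.21% of all genes. The extremes among called genes were *UBE2T* (0.39) and *FANCM* (-1.22) in CP70, *C1orf86* (1.02) and *C19orf40* (-1.23) in PEA2, and *FANCE* (0.89) and *FANCB* (-1.49) in PEO4. Of these, *C19orf40* held 5 to 15 reads in PEA2 and *FANCE* 11 to 38 in PEO1. The Fanconi count in CP70 fell from 4 to 2 without A2780 replicate 3, and that in PEO4 from 7 to 4 without PEO4 replicate 3.

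Many of these genes are transcribed with the cell cycle, so a list of 24 S phase and mitosis genes was measured beside them. In CP70 4 of the 24 rose and 6 fell, in PEA2 8 rose and 9 fell, and in PEO4 1 rose and 14 fell, with medians of -0.07, -0.15 and -0.35. Of all genes 39.9%, 61.9% and 41.5% were called in these pairs, and 17.7%, 29.4% and 21.9% were called lower. Their summed level was 6290 to 6400 CPM in A2780 and 6060 to 6130 in CP70, 4770 to 4870 in PEA1 and 4680 to 4860 in PEA2, and 4120 to 4420 in PEO1 and 3320 to 3800 in PEO4. *PCNA*, the replication clamp, fell in all 3 resistant lines (log2FC -0.52, -0.38 and -1.63), while *MKI67* rose by 0.62 in CP70 and by 0.28 in PEA2 and was -0.23 in PEO4 (FDR 0.124). The summed level of the 10 members was 556 to 593 CPM in A2780 and 486 to 499 in CP70, 554 to 612 in PEA1 and 364 to 411 in PEA2, and 417 to 442 in PEO1 and 400 to 448 in PEO4. In the A2780 pair the ranges of the summed level did not overlap for either list. In the PEA pair they overlapped for the cycle genes alone, and in the PEO pair for the members alone. *FANCI* was the largest part of the sum of the members, at a mean of 232.14 CPM in PEA1 and 120.26 in PEA2. Single cycle genes moved in both directions, with a median absolute log2FC of 0.26 in CP70, 0.44 in PEA2 and 0.39 in PEO4. The part of cell division in the results was not tested.

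**Figure D3:**
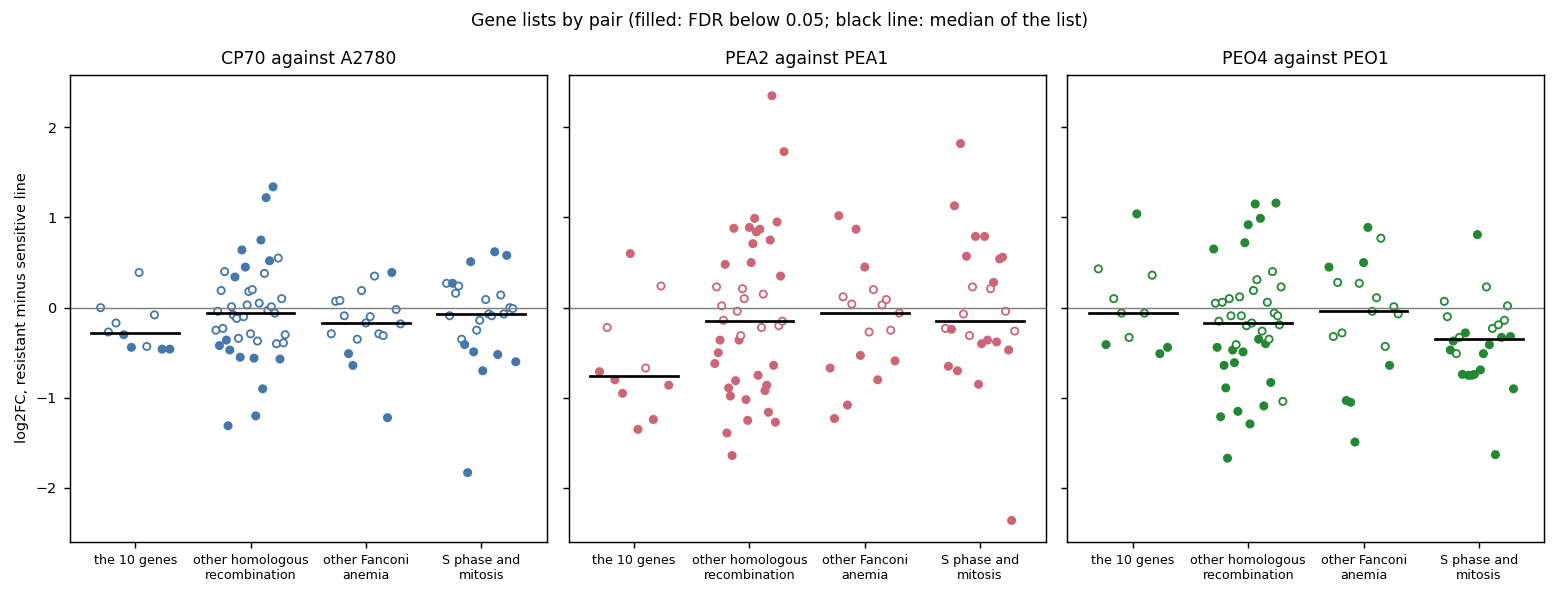
The log2FC (vertical axis, resistant minus sensitive line) of the 10 genes, 41 other homologous recombination genes, 17 other Fanconi anemia genes and 24 S phase and mitosis genes in each pair, with a point per gene, filled where the FDR was below 0.05, and the median of each list as a black line. The median of the 10 genes is lowest in the PEA pair, at -0.76, and that of the S phase and mitosis genes in the PEO pair, at -0.35.

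Neighbouring genes on the chromosome were examined after the values of the members had been seen. For each member the median log2FC was taken over the genes that start within 1 Mb on either side and have a mean log2 CPM above 0. In the PEA pair the neighbours of *RAD51C* had a median of -0.67, with 15 of 17 below 0, and those of *BRIP1*, on the same chromosome arm with 0 neighbours shared, a median of -0.57 (7 of 8 below 0). Around *FANCI* the median was -0.78 (15 of 17), around *BLM* -0.59 (17 of 20, with 8 neighbours shared with *FANCI*) and around *RAD54L* -0.72 (15 of 22). Around *PALB2*, the member that rose, it was 0.62, with 11 of 12 above 0. Other members differed from their neighbours, with *XRCC2* at 0.24 beside a median of -0.25 (4 of 5 below 0), *BARD1* at -0.71 beside -0.20 (2 of 4 below 0) and *BLM* itself at -0.22. The median around *RAD51D*, at -0.67, was -0.40 (7 of 10 below 0). Among windows around all genes with at least 5 neighbours in this pair, the median was 0.01, and 7.81%, 10.7% and 15.4% of them were as far out as those of *FANCI*, *RAD51C* and *PALB2*.

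In the PEO pair the windows of *RAD51C* and *BRIP1* were high instead. Each had a median of 0.76, with 16 of 17 and 7 of 8 neighbours above 0, and 5.74% of all windows were at or above that level. *RAD51C* itself rose by 1.04 there, whereas *BRIP1* was at 0.10. With 5 Mb on either side the medians around *RAD51C* were -0.75 in the PEA pair (54 genes, 47 below 0) and 0.66 in the PEO pair (48 above 0). Around *BRIP1* they were -0.68 and 0.66 over 64 genes, and around *PALB2* 0.77 over 57 genes in the PEA pair. In the same 3 windows of the A2780 pair the medians were 0.05 (*RAD51C*), 0.05 (*BRIP1*) and -0.15 (*PALB2*). The windows of *RAD51C* and *BRIP1* overlap at this width, and the share of all windows as far out was counted for 1 Mb alone. Around *XRCC3* the medians within 1 Mb were 0.00, -0.18 and -0.16 in CP70, PEA2 and PEO4, against its own -0.46, -0.86 and -0.44. That distance depended on the window in PEA2, where the median was -0.71 within 0.5 Mb (8 of 11 below 0) and -0.42 within 5 Mb. The part of neighbouring genes or of DNA copy number in these values was not tested.

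**Figure D4:**
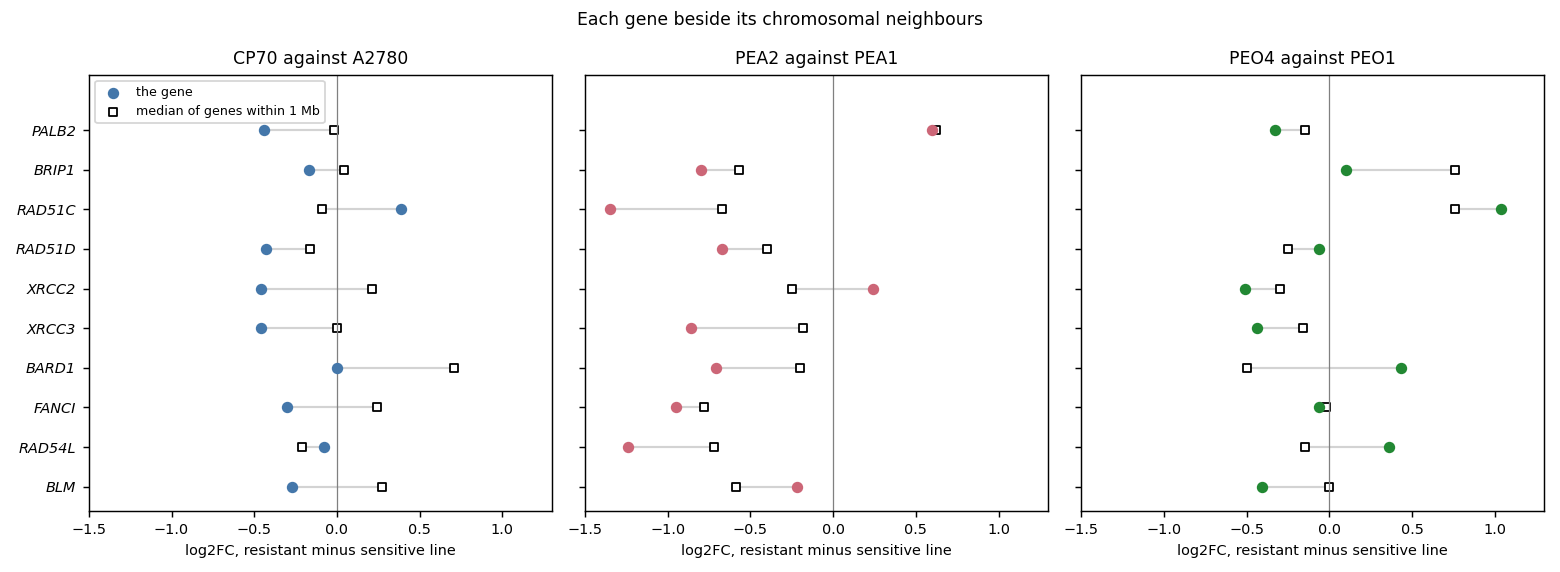
The log2FC of each gene (filled circles, horizontal axis) beside the median log2FC of the genes that start within 1 Mb of it (open squares) in each pair. In the PEA pair *PALB2* (0.60) lies at the median of its neighbours (0.62) and *RAD51C* (-1.35) beyond that of its own (-0.67), and in the PEO pair the neighbours of *RAD51C* and *BRIP1* both have a median of 0.76.

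A pair of members share a promoter region with a gene on the other strand. *DCTN5*, whose start lies 145 bases from that of *PALB2*, had a log2FC of -0.36 (FDR 0.0363) in CP70, 0.60 (FDR 0.000627) in PEA2 and -0.22 (FDR 0.191) in PEO4, beside -0.44, 0.60 and -0.33 for *PALB2*. *ZFYVE21*, 226 bases from *XRCC3*, rose in CP70 (0.53, FDR 0.0243), where *XRCC3* fell. It fell in PEA2 (-0.71, FDR 0.00185) and was at -0.32 (FDR 0.171) in PEO4.

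Across the 18 libraries the members did not move as a block. Over the 45 pairs of members Pearson's r ran from -0.76 to 0.91 with a median of 0.36, and 31 were above 0. These points come from 6 lines with 3 libraries each, so r mostly describes differences between lines. For each member the gene with the highest r was taken from the whole table, so a high r follows from the choice. The gene most like *FANCI* was *ATP5F1* (r = 0.983), and the gene most like *XRCC3* was *POLE* (r = 0.927). *RAD51C* was most like *CCDC88A* (r = 0.950), *RAD54L* like *ZC4H2* (r = 0.947), *PALB2* like *BET1* (r = 0.947), *BRIP1* like *STXBP4* (r = 0.941), *BARD1* like *MRPS28* (r = 0.922), *RAD51D* like *H2AFZ* (r = 0.919), *XRCC2* like *ZNF275* (r = 0.910) and *BLM* like *E2F7* (r = 0.903), each over 18 libraries.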

How the data were processed

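RNA-seq was analysed for 18 libraries, grouped by the line named in the labels. Per the submitters' processing notes, Bowtie2, featureCounts, limma and hg19 were used, without versions, and the aligner's settings, any filter on genes and the use of strand in counting are not given in the sources used here. The authors deposited log2 CPM values per gene, computed with 0.5 reads added and library sizes scaled by a factor. Whole reads were recovered from 100% of values (within 0.001 reads) to give depth. Counting error alone is covered by the depths given.

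Tests used limma 3.58.1 (R 4.3.3) on these values, with 6 line means, a trend of the variance with expression, and Benjamini-Hochberg adjustment over 12853 genes. The model over the 3 pairs had terms for the pair and the sensitivity in place of line means. All 18 libraries entered each fit, except where one was left out. Scripts were tested on simulated data. Gene spans, start sites and reference transcript lengths came from a GENCODE annotation of GRCh37, which matched 103 of 105 listed genes. The members, lists and tests were chosen with earlier results of these data known. The text names the 10 members, 3 of 4 partners (the other is not reported here), *PCNA*, *MKI67*, the highest and lowest called gene of the 2 pathway lists in each pair, list genes called higher, or lower, in every pair, and the gene most correlated with each member. *DCTN5* and *ZFYVE21* were named for their position, after their values had been seen, as were the markers of cell type. Alternatives were each pair fitted alone, a mean log2 value above 0, quantile normalization, plain library sizes, the replicate number as a block, no trend, voom weights, 2 reads added, a log2FC above 1, the 3 pair differences as replicates, and leaving out each library.

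Same-numbered libraries of a pair did not deviate together (correlations of -0.0354 to 0.0483), so the block is given with the alternatives alone.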

Additional observations from a re-analysis of the deposited data

Results flagged for a closer look

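The change from the sensitive to the resistant line differed between pairs for 7 members in each of 2 contrasts. Each was tested as a difference of differences with limma at an FDR below 0.05. Of all genes, 57.5% differed between the PEA and A2780 pairs and 58.7% between the PEO and PEA pairs at this threshold. The PEA pair minus the A2780 pair gave 1.04 for *PALB2*, -0.63 for *BRIP1*, -1.74 for *RAD51C*, 0.70 for *XRCC2*, -0.72 for *BARD1*, -0.65 for *FANCI* and -1.15 for *RAD54L*. The PEO pair minus the PEA pair gave -0.94 for *PALB2*, 0.90 for *BRIP1*, 2.39 for *RAD51C*, -0.75 for *XRCC2*, 1.15 for *BARD1*, 0.89 for *FANCI* and 1.59 for *RAD54L*. Both contrasts contain the PEA pair, so they are not independent. With plain library sizes the differences for *XRCC2* were 0.43 (FDR 0.151) and -0.48 (FDR 0.104), and those for *XRCC3* became -0.67 (FDR 0.0166) and 0.69 (FDR 0.0141).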

How the results depend on the processing

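Of 780 values of single members under alternatives, 716 kept their direction and their side of the threshold, 34 lost the call, 22 gained one and 8 turned their sign, all 8 uncalled before and after. *RAD51D* turned in the PEO pair without PEO1 replicate 1 (0.26), PEO1 replicate 3 (0.14) or PEO4 replicate 2 (0.33), in a range of -0.57 to 0.33. *XRCC2* turned in the PEA pair with plain library sizes (-0.003), and *BARD1* in CP70 with 2 reads added (-0.0006) and without A2780 replicate 1 (-0.03), CP70 replicate 1 (-0.01) or CP70 replicate 3 (-0.06), in a range of -0.06 to 0.09 without each library. Leaving out a library leaves fewer samples, and the calls of *FANCI* in CP70 (FDR 0.00457) and *RAD51C* in PEO4 (FDR 0.000166) were kept throughout. The members called ranged from 1 to 4 in CP70, 7 to 7 in PEA2 and 1 to 6 in PEO4 without each library in turn, and were 0, 2 and 1 with a log2FC above 1 required as well. The Fanconi anemia genes called ranged from 2 to 4 in CP70 and 4 to 8 in PEO4. Over the 3 pairs, 3 members became 1 with the replicate block (*XRCC3*, FDR 0.0191, while *FANCI* was at 0.0700 and *BLM* at 0.0907) and 0 with the pair differences as replicates. The members whose change differed between the PEO and A2780 pairs were 2 after quantile normalization, 1 without the trend, 1 with 2 reads added, and 0 to 1 without each library. With the replicate block, *PALB2* lost its call in CP70 (FDR 0.0518) and *BARD1* and *RAD54L* gained one in PEO4 (FDR 0.0316 and 0.0428). The genes called over the 3 pairs fell from 3092 to 999 with it, and the numbers do not pair the samples. Of the 17 Fanconi anemia genes in CP70, 1 rose and 3 fell, and 0 and 3 after quantile normalization, and the cause was not tested. In PEA2 the plain library sizes gave 2 higher and 7 lower for them and 7 higher and 14 lower of the 24 S phase and mitosis genes. Among the members, depth limits *RAD51D* most.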
